A study of Mus musculus with 12 samples.

Results

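In mice dosed with GalNAc-conjugated antisense oligonucleotides (ASOs), 7 host genes of ASO uptake, of RNA cleavage in hybrids and of the separate Argonaute pathway are described here: Asgr1, Asgr2, Rnaseh1, Rnaseh2a, Rnaseh2b, Rnaseh2c and Ago2. They were taken by gene symbol from the 31114 genes to which the measured transcripts could be joined, and all 7 were found. RNA-seq was performed on livers of 12 hFIX-R29X mice, which lack mouse F9 and in its place express a factor IX minigene of human origin, interrupted by a premature stop codon and driven in hepatocytes by the human transthyretin promoter. Because every animal has this background, the comparisons say nothing of livers without it. The vehicle group received DPBS, the second group a Control-GalNAc-ASO at 15 mg/kg, and the third group an Upf3b-GalNAc-ASO at 10 mg/kg, so the ASO groups differed in dose as well as in sequence. The mice were 8 to 14 weeks old, were given 6 subcutaneous doses, 1 every 5 days, and were killed 48 h after the last dose. Each group held 4 livers, with females as replicates 1 and 2 and males as replicates 3 and 4. Livers treated with an ASO against Upf1 were not analysed here.

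Hepatocytes carry the asialoglycoprotein receptor, a lectin that recognizes N-acetylgalactosamine (GalNAc) and galactose on glycoproteins that have lost their sialic acid. ASGR1 and ASGR2 are its major and minor subunits, and the receptor takes its cargo into clathrin-coated vesicles and releases it in endosomes. A gapmer ASO that reaches its RNA forms an RNA-DNA duplex. RNase H1 cuts the RNA strand of this duplex opposite the DNA gap, and exonucleases then degrade the RNA pieces. RNase H2 also cleaves RNA in hybrids with DNA but is known chiefly for removing ribonucleotides from genomic DNA, and it is built from a catalytic A subunit and the B and C subunits. Argonaute 2, encoded by Ago2, is the slicing protein of the RNA-induced silencing complex, which small interfering RNAs and microRNAs use and gapmer ASOs do not.

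The ASOs were 16-base gapmers of phosphorothioate linkages, with 3 modified bases (constrained ethyl, cEt) at each end and 10 DNA bases between them. Their sequences are shown because the central gap, in capitals, is the stretch opposite which RNase H1 can cut the paired RNA. They are those of the unconjugated ASOs in the supplementary table of the study, written 5′ to 3′.
Control ASO: ggcCAATACGCCGtca
Upf3b-ASO: ggaTATAGATGTAacg
The Upf3b-ASO is the reverse complement of a single stretch of Upf3b-201, the longest coding transcript of its target, here in capitals within its neighbouring bases.
Upf3b-201 site: atagtcaCGTTACATCTATATCCtgtgtct
The site lies at chrX:37091973-37091988 on the minus strand of GRCm38, in exon 10 of 10, within the 3′ UTR and 524 bases beyond the stop codon. Upf3b-202 and Upf3b-203 do not contain it. In the annotated transcripts of 31001 genes, 1 gene, Upf3b itself, held a perfect match to the Upf3b-ASO, and no gene held one to the control ASO.

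None of the 7 genes carried a close match to either ASO in its annotated transcripts. The best stretch in any of their transcripts left 4 mismatches to the Upf3b-ASO in Rnaseh2a and Ago2, 5 in Asgr1 and Rnaseh2b, 6 in Asgr2, and 7 in Rnaseh1 and Rnaseh2c. For the control ASO it left 4 mismatches in Ago2, 5 in Rnaseh2a, Rnaseh2b and Rnaseh2c, and 6 in Asgr1, Asgr2 and Rnaseh1. A best stretch with at most 4 mismatches was found in 2144 genes (6.92%) for the Upf3b-ASO and in 1185 genes (3.82%) for the control ASO, so a match as poor as that of Ago2 is found in many genes. Longer transcripts offer more stretches, and the Ago2 transcript, with 13705 bases, is the longest of the 7 genes. These matches describe letters only, and binding was not measured. Introns outside the annotated transcripts were not searched.

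The livers held 13.28 to 20.39 M estimated counts each (M, mega), and the gene values below are counts scaled to a library of 1 M (CPM) scaled by TMM-normalized library size. The target answered as its label says: Upf3b stood at 10.4, 9.38, 13.4 and 10.9 CPM in the DPBS livers, 8.58, 9.56, 7.93 and 12 in the control ASO livers, and 1.58, 0.651, 0.999 and 0.662 in the Upf3b-ASO livers. Its log2 fold change under Upf3b-ASO was -3.3 ± 0.27 (SE) against control ASO (edgeR quasi-likelihood test, Benjamini-Hochberg adjusted p = 7.4e-05). The transcript that carries the site fell to between 1 and 3 counts per liver, from 74 to 162 under control ASO. Those without the site were lower too, Upf3b-202 at 0 to 1 counts from 2 to 14 and Upf3b-203 at 8 to 19 from 25 to 35. Their log2 differences from control ASO were -3.53 ± 0.86 (adjusted p = 0.12) and -1.14 ± 0.4 (adjusted p = 0.3). Against DPBS, Upf3b-202 was called at -4.59 ± 0.87 (adjusted p = 0.048) and Upf3b-203 was not, at -1.06 ± 0.4 (adjusted p = 0.4). Hepatocyte markers summed to 97609 to 131532 CPM in DPBS, 90505 to 136836 in control ASO and 74922 to 115028 in Upf3b-ASO livers, and no marker of hepatocytes, Kupffer, endothelial, stellate, biliary or lymphoid cells was at 0 throughout a group. Replicate 3 of the control ASO group stood apart, with a root mean square log2 distance of 0.952 from the other livers of its group where the other 11 livers had 0.408 to 0.596. Its acute-phase genes summed to 98699 CPM against 13384 to 20570 in the other 11 livers. Several results below are therefore also given without it. In whole liver, fewer cells of a type and less RNA per cell cannot be told apart. Each library was counted as 1 mouse, as the labels give the groups.

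Across all 12 livers the asialoglycoprotein receptor genes were far more abundant than the nuclease genes, apart from Rnaseh2c. In TPM, which scales reads by transcript length and then to the same total in each liver, Asgr1 averaged 372 ± 58.6 (SD, n = 12, range 278 to 459), Asgr2 142 ± 30.7 (90.4 to 193) and Rnaseh2c 142 ± 28.8 (77.6 to 184). Rnaseh2a followed at 37.1 ± 8.62 (13.7 to 51.3), Rnaseh2b at 6.03 ± 1.39 (2.66 to 7.93), Rnaseh1 at 4.29 ± 0.805 (3.42 to 6.09) and Ago2 at 2.2 ± 0.65 (1.13 to 3.34). Rnaseh1, the nuclease on which gapmers rely, was thus among the least abundant of the 7. Taking neighbours in this order, Asgr2 exceeded Rnaseh2c in 8 of 12 livers and Rnaseh2b exceeded Rnaseh1 in 10 of 12. The ratios within livers were 1.03 ± 0.272 and 1.44 ± 0.396 (SD, n = 12). The ranges of these pairs overlapped, and their order was not tested. The other neighbours kept their order in 12 of 12 livers, with Asgr1 at 2.66 ± 0.33 times Asgr2 and Rnaseh1 at 2.12 ± 0.722 times Ago2.

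**Figure D1:**
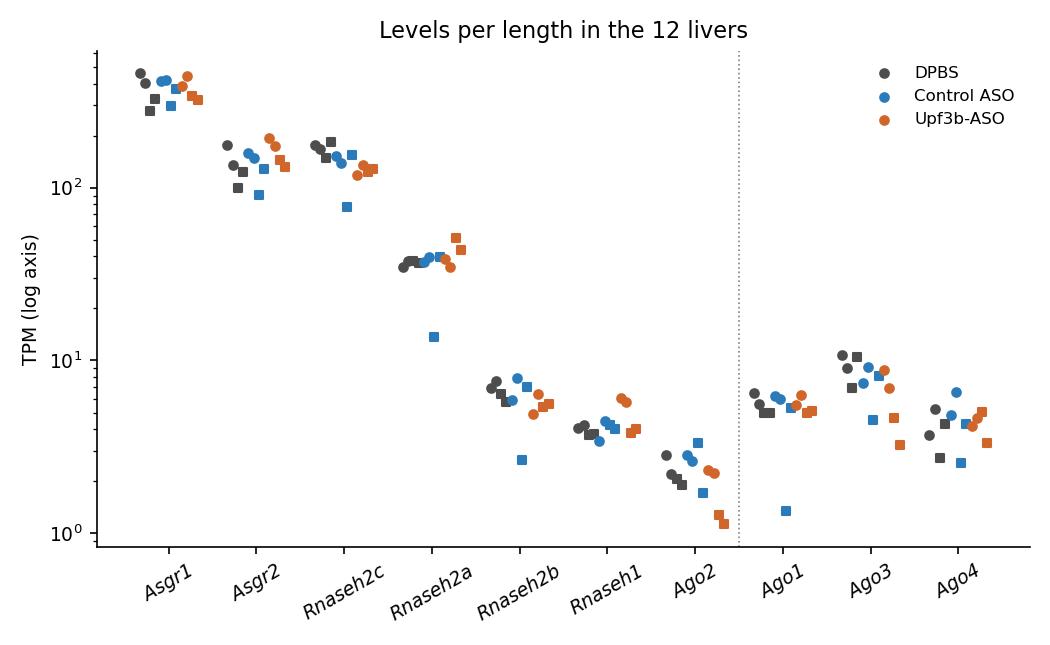
TPM of each gene in each of the 12 livers on a log axis, with the 7 genes in order of mean level, the other Argonautes right of the dotted line, colours for groups, circles for females and squares for males. Asgr1 lies above every other gene, Asgr2 and Rnaseh2c share a range, and Rnaseh1 and Ago2 lie lowest of the 7.

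The TPM of Rnaseh2c and Rnaseh2a rested largely on short transcripts without a coding sequence. The 271-base Rnaseh2c-203, annotated as a retained intron, held 65.2% of Rnaseh2c TPM (range over livers 61.1% to 70.4%), and the 338-base retained-intron transcript Rnaseh2a-205 held 50.8% of Rnaseh2a TPM but 15.8% of its counts. Short transcripts gain in TPM because their effective length is small. Over protein-coding transcripts alone, Rnaseh2c averaged 43.1 TPM, Rnaseh2a 16, Rnaseh1 4.29 and Rnaseh2b 4.18, a scale chosen after the values were seen. On it Rnaseh2c and Rnaseh2a kept their ranks of 3 and 4, and the mean of Rnaseh1 stood just above that of Rnaseh2b, while Asgr2, at 133, stood well above Rnaseh2c.

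The first question was whether silencing Upf3b changed the machinery that delivers and executes the ASO. Of the 5 members that passed the TPM filter, edgeR's quasi-likelihood test called 0 between Upf3b-ASO and control ASO at an adjusted p under 0.05, where 10.3% of the 8846 tested genes were called. At an unadjusted p under 0.05 the count was 1, Asgr2, where 28.0% of genes had such a p. DESeq2's Wald test called 1, again Asgr2, where it called 17.9% of genes. Rnaseh1 and Ago2 lay under that filter and were tested among the 14254 genes kept by edgeR's filterByExpr, where 6.24% were called and neither of them was. Of these, Ago2 alone had an unadjusted p under 0.05, and the share of the wider set with such a p was not counted. DESeq2 called Ago2 there, beside 12.1% of genes. Neither limma fit of log2 TPM called any of the 7.

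**Figure D2:**
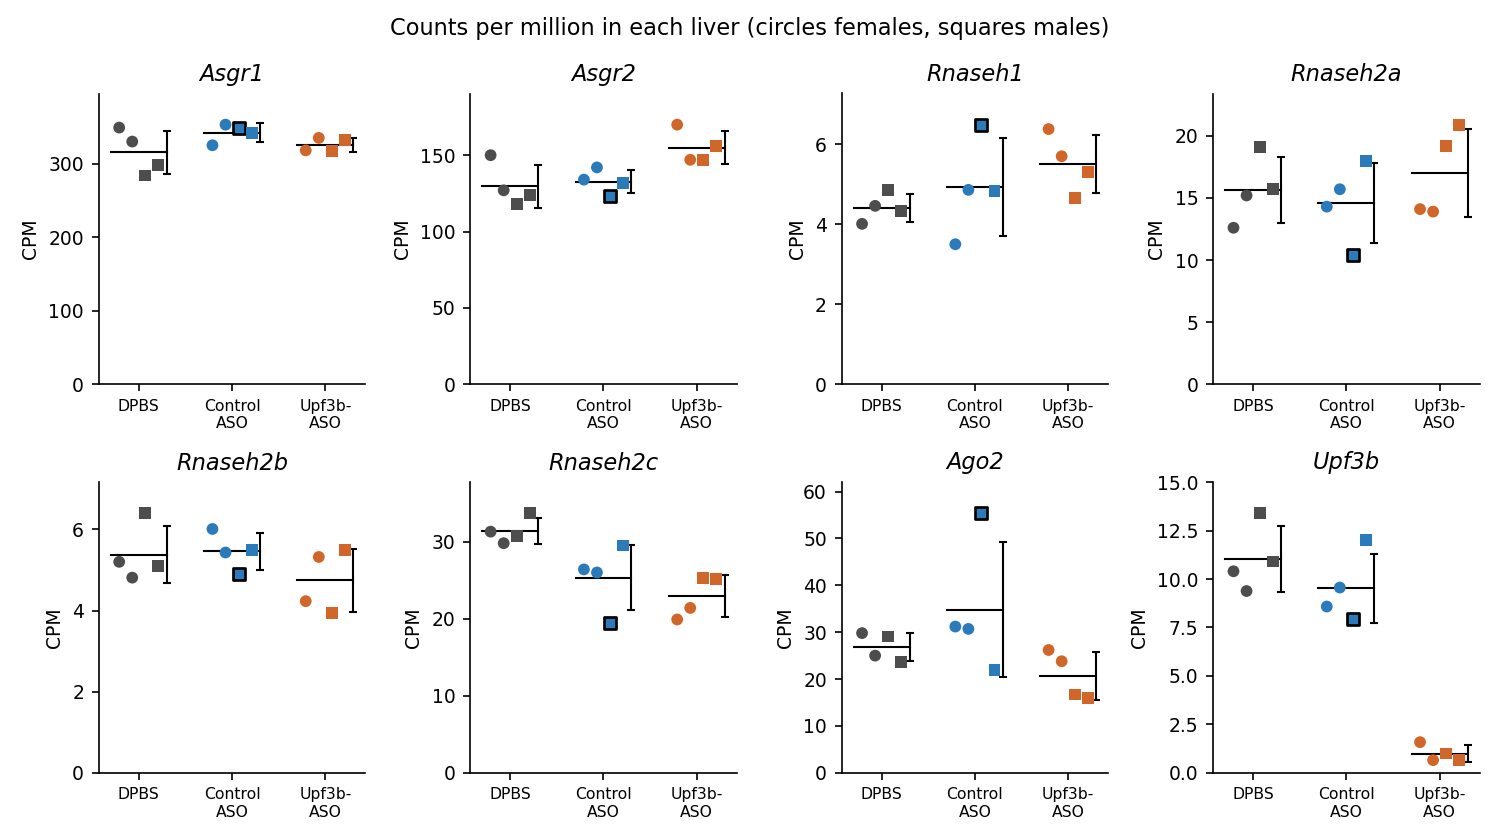
CPM of the 7 genes and of Upf3b in each liver, by group, with circles for females and squares for males. Lines give group means, bars 1 SD, and the black-edged square is control ASO replicate 3, which has the highest Rnaseh1 and Ago2 and the lowest Rnaseh2a and Rnaseh2c of its group.

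Asgr1 (ENSMUSG00000020884, chromosome 11: 70054085-70057894, plus strand of GRCm38) differed little between groups. It stood at 349, 330, 284 and 298 CPM in DPBS, 325, 353, 349 and 342 in control ASO, and 318, 335, 317 and 332 in Upf3b-ASO livers. The groups overlapped, and the means were 316 ± 29.8, 342 ± 12.4 and 326 ± 9.5 (SD, n = 4 each). The log2 fold change of Upf3b-ASO against control ASO was -0.07 ± 0.08, with a 95% interval of -0.25 to 0.11 (adjusted p = 0.6). Against DPBS it was 0.05 for Upf3b-ASO (adjusted p = 0.78) and 0.12 for control ASO (adjusted p = 0.64).

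Asgr2 (ENSMUSG00000040963) lies 34749 bases downstream on the same chromosome and strand, at 70092644-70106187. Its CPM was 150, 127, 118 and 124 in DPBS, 134, 142, 123 and 132 in control ASO, and 170, 147, 147 and 156 in Upf3b-ASO livers. Every Upf3b-ASO liver lay above every control ASO liver, a separation that 7.74% of tested genes showed in the same direction, while DPBS replicate 1 reached into the Upf3b-ASO range. The means were 130 ± 13.7, 133 ± 8.11 and 155 ± 10.7. The log2 difference from control ASO was 0.22 ± 0.08 (95% interval 0.04 to 0.4), with an unadjusted p of 0.019 and an adjusted p of 0.1, which does not pass. A two-sided exact permutation test over livers gave p = 0.029, the smallest that 4 against 4 allows. Against DPBS the log2 difference was 0.26 ± 0.08 (0.08 to 0.44, adjusted p = 0.077), and control ASO differed from DPBS by 0.03 (adjusted p = 0.87).

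The ratio of the receptor subunits was taken within each liver. Asgr1 TPM divided by Asgr2 TPM was 2.59, 2.98, 2.77 and 2.64 in DPBS, 2.61, 2.8, 3.3 and 2.89 in control ASO, and 2.01, 2.52, 2.33 and 2.44 in Upf3b-ASO livers. All 4 Upf3b-ASO livers lay below the other 8, but this was noticed in the values and was not tested. How many other pairs of genes are separated in this way was not counted, and the ratio reuses the Asgr2 values of the same livers. Coding transcripts alone leave out only the retained-intron transcript of Asgr2, so they are not a separate observation. On them the Upf3b-ASO range, 2.22 to 2.79, lay narrowly below the DPBS range of 2.8 to 3.05. The control ASO range was 2.95 to 3.3.

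Rnaseh1 (ENSMUSG00000020630, chromosome 12: 28649602-28659589, plus strand), the enzyme that cuts gapmer-bound RNA, has 1 annotated transcript and was covered by 64 to 105 counts per liver. It stood at 4.01, 4.46, 4.86 and 4.34 CPM in DPBS, 3.5, 4.86, 6.49 and 4.84 in control ASO, and 6.38, 5.7, 4.66 and 5.3 in Upf3b-ASO livers. The control ASO livers spanned both of the other groups. The means were 4.42 ± 0.351, 4.92 ± 1.22 and 5.51 ± 0.72. Upf3b-ASO differed from control ASO by 0.19 ± 0.18 on the log2 scale (95% interval -0.21 to 0.6, adjusted p = 0.55) and from DPBS by 0.33 ± 0.18 (-0.07 to 0.74, adjusted p = 0.36). Control ASO differed from DPBS by 0.14 (adjusted p = 0.8). Single control ASO livers moved these values: the difference between the ASO groups was 0.05 without replicate 1 (adjusted p = 0.89) and 0.35 without replicate 3 (adjusted p = 0.18), and that of control ASO from DPBS was 0.29 and -0.01. The intervals leave room for a rise of up to 0.74 on the log2 scale that this depth and spread could not show.

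The 3 subunits of RNase H2 were taken in turn. Rnaseh2a (ENSMUSG00000052926, chromosome 8: 84956610-84969767, minus strand), the catalytic subunit, had 12.6, 15.2, 19.1 and 15.7 CPM in DPBS, 14.3, 15.7, 10.4 and 18.0 in control ASO, and 14.1, 13.9, 19.2 and 20.9 in Upf3b-ASO livers. The groups overlapped throughout, and the log2 differences were 0.19 ± 0.18 for Upf3b-ASO against control ASO (-0.2 to 0.59, adjusted p = 0.51), 0.11 against DPBS (adjusted p = 0.77) and -0.08 for control ASO against DPBS (adjusted p = 0.86). The lowest value, 10.4, belonged to control ASO replicate 3, and without that liver the Upf3b-ASO difference from control ASO was 0.02 and the control ASO difference from DPBS 0.1. Exons of Rnaseh2a-202 and Rnaseh2a-209 overlap Prdx2 on the opposite strand, and those of 4 of its transcripts overlap Gm49661 on the same strand, so reads there could have been split.

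Rnaseh2b (ENSMUSG00000021932, chromosome 14: 62292589-62372992, plus strand), a subunit without catalytic activity, was covered by 59 to 110 counts. Its CPM was 5.2, 4.81, 6.4 and 5.09 in DPBS, 6.01, 5.43, 4.9 and 5.5 in control ASO, and 4.23, 5.32, 3.93 and 5.5 in Upf3b-ASO livers. The Upf3b-ASO group held the lowest livers but overlapped both others. Its log2 difference was -0.2 ± 0.15 from control ASO (-0.54 to 0.14, adjusted p = 0.41) and -0.18 from DPBS (adjusted p = 0.55). Control ASO differed from DPBS by 0.03 (adjusted p = 0.95).

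Rnaseh2c (ENSMUSG00000024925, chromosome 19: 5601873-5607019, plus strand), the remaining subunit, was the one member with lower values in both ASO groups than in the vehicle group. It had 31.3, 29.8, 30.7 and 33.7 CPM in DPBS, 26.4, 26.0, 19.4 and 29.5 in control ASO, and 19.9, 21.4, 25.3 and 25.2 in Upf3b-ASO livers. Neither ASO group overlapped DPBS, while the ASO groups overlapped each other. The means were 31.4 ± 1.67, 25.3 ± 4.24 and 22.9 ± 2.73.

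Upf3b-ASO against DPBS gave Rnaseh2c a log2 fold change of -0.45 ± 0.13 (95% interval -0.74 to -0.17), with an unadjusted p of 0.0047 and an adjusted p of 0.051, just short of the threshold. The 2 groups were separated as 12% of tested genes were in that direction (exact permutation p = 0.029). In this comparison edgeR called 0 of the 5 tested members, beside 8.93% of genes. At an unadjusted p under 0.05 there were 2, Asgr2 and Rnaseh2c, beside 23.2% of genes. DESeq2 called both, beside 14.4% of genes. With DESeq2's size factors in edgeR, Rnaseh2c was called (adjusted p = 0.046) along with 9.12% of genes, and a fit of the 2 groups alone called Asgr2 and Rnaseh2c along with 28.0%. Rnaseh1 and Ago2 were not called among the 14254 genes of the wider filter, of which 5.76% were, by edgeR, DESeq2 or limma, and neither had an unadjusted p under 0.05.

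Control ASO replicate 3 bore on these calls although it is in neither group of Upf3b-ASO against DPBS, since all 12 livers share an estimate of spread. When it was left out, 28.7% of genes were called between Upf3b-ASO and DPBS. Rnaseh2c was then called at -0.45 (adjusted p = 0.00068) and Asgr2 at 0.26 (adjusted p = 0.018), with the same differences as before. Between Upf3b-ASO and control ASO, Rnaseh2c was called without that liver at -0.28 (adjusted p = 0.018), beside 24.5% of genes, where all livers gave -0.15 ± 0.13 (-0.43 to 0.14, adjusted p = 0.48). Asgr2 stayed uncalled there at 0.21 (adjusted p = 0.075).

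The control ASO alone changed almost nothing that edgeR's test could show. Against DPBS, 0 of the 5 members were called by edgeR, DESeq2 or limma. Of the 8846 genes, edgeR called 0.0113%, a single gene, DESeq2's Wald test 43 genes and limma 0. Rnaseh1 and Ago2 were likewise uncalled in the wider set, where edgeR's share was 0.00702%. Rnaseh2c was the 1 member with an unadjusted p under 0.05, with a log2 fold change of -0.31 ± 0.13 (-0.59 to -0.03, unadjusted p = 0.035, adjusted p = 0.64). Its 4 control ASO livers all lay below the 4 DPBS livers (exact permutation p = 0.029), as was so for 1.66% of tested genes in that direction. Without control ASO replicate 3 the difference was -0.17 (adjusted p = 0.43). The comparisons with DPBS share the same 4 vehicle livers, so the lower Rnaseh2c in both is not 2 independent observations.

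**Figure D3:**
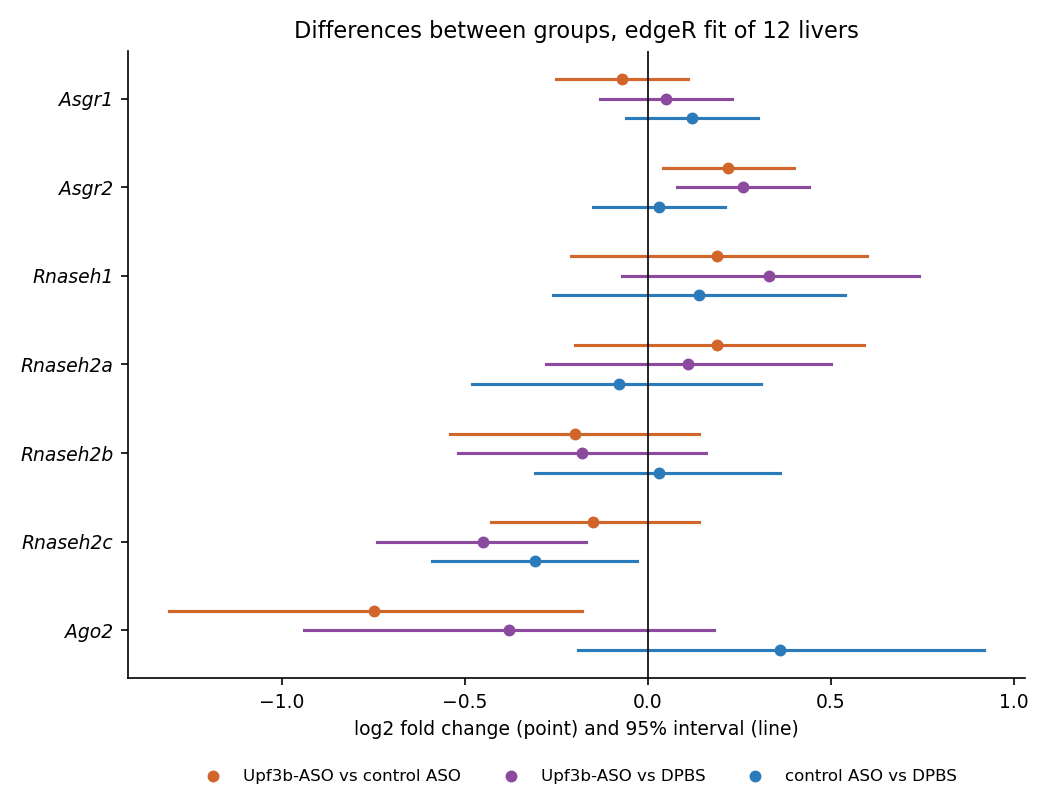
Log2 fold changes of the 7 genes with 95% intervals for the 3 comparisons between groups, from edgeR fits of 12 livers. The intervals that leave out 0 are those of Asgr2 for Upf3b-ASO against either group, of Rnaseh2c for either ASO against DPBS and of Ago2 for Upf3b-ASO against control ASO, and none of these passed after adjustment.

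Within Rnaseh2c, the largest difference between groups was in Rnaseh2c-201, a coding transcript of 1126 bases. Its estimated counts were 154, 138, 122 and 122 in DPBS, 71, 81, 74 and 85 in control ASO, and 17, 63, 47 and 45 in Upf3b-ASO livers. The same livers had 7.86, 6.8, 6.96 and 6.2 CPM, then 3.69, 4.43, 4.8 and 4.99, then 1.17, 3.35, 3.13 and 2.98. All DPBS livers lay above all control ASO livers, and these above all Upf3b-ASO livers. This order was found in 14 of 37679 tested transcripts, or 0.0372%. No other order of the groups was counted, so the share is that of the order seen in Rnaseh2c-201 and is not a test. The log2 fold change of Upf3b-ASO was -1.4 ± 0.3 against DPBS (unadjusted p = 0.00077, adjusted p = 0.073) and -0.75 ± 0.29 against control ASO (adjusted p = 0.35), and that of control ASO against DPBS was -0.65 ± 0.29 (adjusted p = 0.99). Without control ASO replicate 3 the comparison of Upf3b-ASO with DPBS passed at an adjusted p of 0.043, where 2.92% of transcripts were called.

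The other Rnaseh2c transcripts showed no such order. Rnaseh2c-204, a coding transcript of 393 bases, differed by -0.22 ± 0.16 between Upf3b-ASO and DPBS (adjusted p = 0.8), Rnaseh2c-205 by -0.3 ± 0.44 (adjusted p = 0.94) and the leading Rnaseh2c-203 by -0.39 ± 0.2 (adjusted p = 0.61). Of the bases of Rnaseh2c-201, 426 of 1126 (37.8%) overlap Kat5, an acetyltransferase gene on the opposite strand, and the library type, strand included, was left to Salmon's automatic detection, whose outcome is not given in the sources used here. Kat5 itself had a log2 difference of 0.2 between Upf3b-ASO and DPBS (adjusted p = 0.66). Whether reads of Kat5 took part in the transcript's values was not tested.

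**Figure D4:**
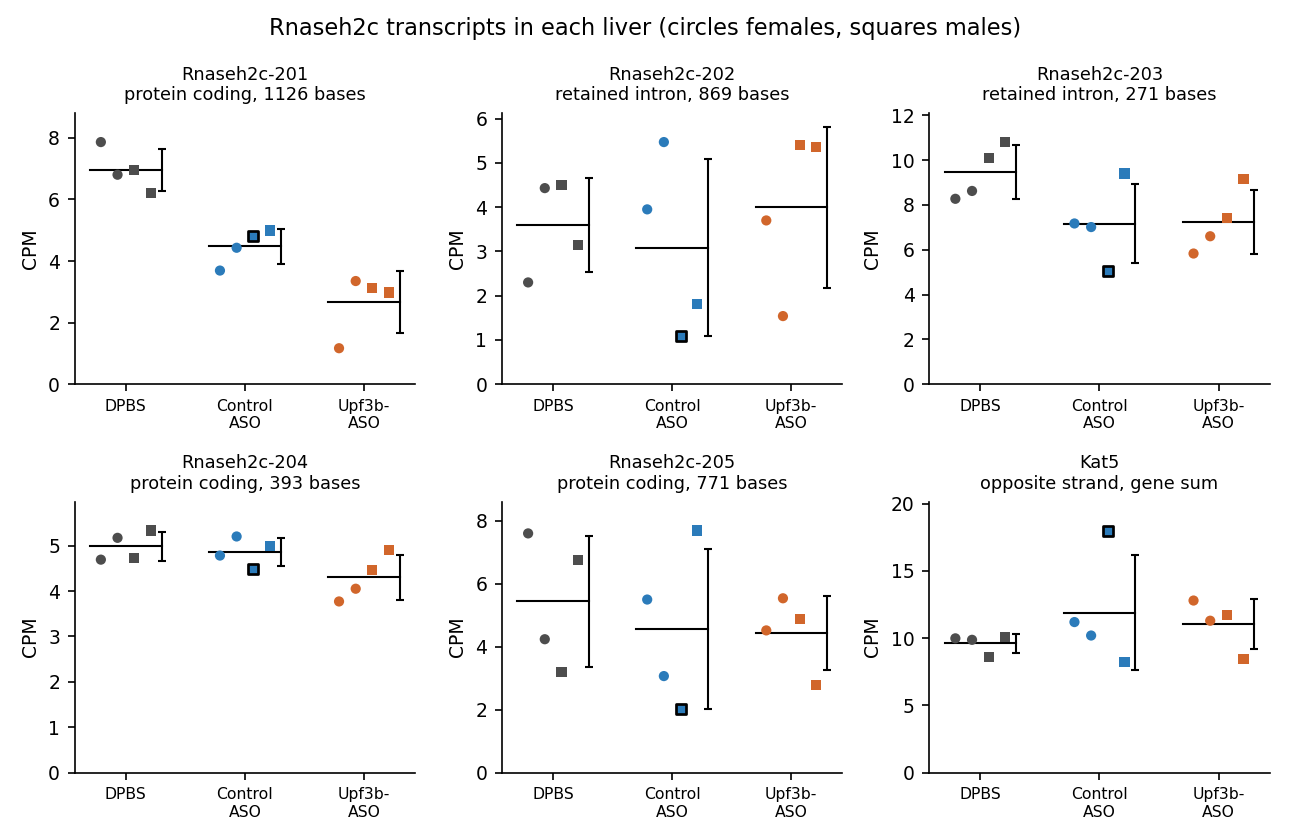
CPM of the 5 Rnaseh2c transcripts and of Kat5 in each liver, by group, with circles for females, squares for males, lines for means, bars for 1 SD and a black edge for control ASO replicate 3. The 3 groups are separated in Rnaseh2c-201 and overlap in the other panels.

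Ago2 (ENSMUSG00000036698, chromosome 15: 73095844-73184935, minus strand) had a wide spread among the control ASO livers. Its CPM was 29.8, 25.0, 29.1 and 23.7 in DPBS, 31.2, 30.7, 55.4 and 21.9 in control ASO, and 26.2, 23.8, 16.7 and 16 in Upf3b-ASO livers. The value of 55.4 belonged to replicate 3, the liver with the high acute-phase sum, and whether that state had a part in the Ago2 value was not tested. The means were 26.9 ± 3.02, 34.8 ± 14.4 and 20.7 ± 5.09. Upf3b-ASO differed from control ASO by -0.75 ± 0.26 on the log2 scale (95% interval -1.31 to -0.18), with an unadjusted p of 0.014 and an adjusted p of 0.11, and the exact permutation test gave p = 0.086. Without replicate 3 the difference was -0.36 (adjusted p = 0.068), still uncalled. Without replicate 4 of the control ASO group, the lowest of that group, the difference passed narrowly at -0.89 (adjusted p = 0.049), where 7.68% of genes were called.

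Against DPBS, Ago2 differed by -0.38 ± 0.25 under Upf3b-ASO (adjusted p = 0.47) and by 0.36 under control ASO (adjusted p = 0.69). Leaving out control ASO replicate 3 gave -0.39 for Upf3b-ASO (adjusted p = 0.031), called beside 20.1% of genes, and -0.03 for control ASO. The female livers of the Upf3b-ASO group, at 26.2 and 23.8, lay within the DPBS range and the males below it.

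Among the other Argonautes, which load microRNAs but are not the main slicers, Ago3 fell under Upf3b-ASO. It ranged from 31.6 to 39.9 CPM in DPBS, 22.6 to 33.0 in control ASO and 18.0 to 23.7 in Upf3b-ASO livers. The log2 fold change was -0.73 ± 0.14 against DPBS (adjusted p = 0.0085) and -0.48 ± 0.14 against control ASO, at an adjusted p of 0.04998 that only just passes. Ago1 differed by 0.21 ± 0.26 between the ASO groups (adjusted p = 0.64) and Ago4 by 0.11 ± 0.11 (adjusted p = 0.56). Ago1 was at 9.73 CPM in control ASO replicate 3, the liver where Ago2 was highest, and at 27.0 to 30.9 in the other 11 livers. By mean TPM all 3 exceeded Ago2, with means over 12 livers of 5.24 for Ago1, 7.5 for Ago3 and 4.29 for Ago4 against 2.2.

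The isoforms of the receptor genes were examined next, together with those of the nucleases. Of the 28 transcripts of the 7 genes with at least 10 counts in at least 4 livers, 0 were called in any comparison between groups or sexes by edgeR's quasi-likelihood test. Shares called among all 37679 transcripts were 0.73% for Upf3b-ASO against control ASO, 0.746% for Upf3b-ASO against DPBS, 0.0% for control ASO against DPBS and 1.53% between the sexes. At an unadjusted p under 0.05 the counts of member transcripts were 4, 3, 3 and 3 in the same order. Over all 37679 transcripts they were 4370, 3594 and 1534 for the comparisons between groups, and the count between the sexes was not taken. DESeq2 called 0, 2, 1 and 3 of the member transcripts, beside 4.42%, 3.46%, 0.3% and 4.3% of all transcripts. Its calls were Asgr2-202 and Rnaseh2c-201 for Upf3b-ASO against DPBS, Asgr1-204 for control ASO against DPBS, and Asgr1-201, Asgr1-203 and Asgr1-205 between the sexes.

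Asgr1-204, a 600-base coding transcript with 3.96% of Asgr1 TPM, had 59, 53, 70 and 50 counts in DPBS, 139, 115, 162 and 134 in control ASO, and 27, 113, 89 and 72 in Upf3b-ASO livers. In CPM the control ASO livers lay above all others. Against DPBS the log2 difference was 1.38 ± 0.33 (unadjusted p = 0.0018, adjusted p = 0.99), and 1.21% of tested transcripts were separated in that direction, while 3.48% were separated as Asgr1-204 was between the ASO groups. Asgr2-202, with 7.56% of Asgr2 TPM, had 104, 53, 72 and 62 counts in DPBS, 142, 111, 84 and 119 in control ASO, and 123, 114, 111 and 97 in Upf3b-ASO livers. In CPM both ASO groups lay above DPBS, by 0.77 for control ASO (adjusted p = 0.99) and 0.9 ± 0.24 for Upf3b-ASO (adjusted p = 0.17) on the log2 scale, a separation shared in that direction by 1.21% and 4.55% of tested transcripts. The higher Asgr2 of Upf3b-ASO livers lay largely in the leading Asgr2-201, which held 86.0% of Asgr2 TPM and 92.8% of its counts. The difference of Asgr2-201 from control ASO, 0.28 (unadjusted p = 0.016, adjusted p = 0.29), thus mostly repeats that of the gene.

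No difference between groups in the share of a leading isoform was shown with 4 livers a group. Asgr1-205 held 66.9% of Asgr1 TPM over all livers (range 56.4% to 74.1%) and Rnaseh2b-201 held 54.8% of Rnaseh2b TPM (34.7% to 86.4%). Over the 5 genes with several isoforms, 15 comparisons of the leading share gave exact permutation p-values of 0.14 to 1.0, and the largest difference was 9.95 percentage points, in Rnaseh2b between control ASO and DPBS. Rnaseh2b-204, which the annotation marks as a nonsense-mediated decay (NMD) transcript, held 28.0% of Rnaseh2b TPM on average but rested on 1 to 21 counts per liver. Upf3b is a factor of that pathway, and the log2 difference of Rnaseh2b-204 between the ASO groups was 0.41 ± 0.65 (95% interval -1.03 to 1.86, adjusted p = 0.87), too wide an interval to tell a rise from a fall.

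The sexes did not differ detectably in the members by the main test. In edgeR 0 of the 5 were called between males and females, beside 10.0% of genes. At an unadjusted p under 0.05 there were 0, beside 23.8% of genes, and DESeq2 called 0, beside 1359 of 8846 genes. The log2 differences, male minus female, were -0.07 for Asgr1 (adjusted p = 0.58), -0.12 for Asgr2 (adjusted p = 0.29), 0.26 for Rnaseh2a (adjusted p = 0.32), 0.01 for Rnaseh2b (adjusted p = 0.96) and 0.09 for Rnaseh2c (adjusted p = 0.65). Rnaseh1, at 0.11 (adjusted p = 0.69), and Ago2, at -0.09 (adjusted p = 0.84), were not called among the genes of the wider filter, where 7.07% were.

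Control ASO replicate 3 is a male, and without it 21.9% of genes were called between the sexes. Rnaseh2a was then higher in males by 0.39 (adjusted p = 0.0073) and Rnaseh2c by 0.18 (adjusted p = 0.041). In the wider set, where 15.8% were called, Ago2 was lower in males by a log2 difference of -0.33 (adjusted p = 0.039). On log2 TPM, limma called Asgr1 and Asgr2 lower in males with a pseudocount of 1 or of 0.1, but these fits called 34.6% and 33.6% of genes and their median over all genes was itself -0.29 and -0.31. The isoforms of Asgr1 differed more between the sexes than their sum. Asgr1-201 had 22 to 571 counts in females and 368 to 1129 in males, ranges that overlapped, with a log2 difference of 2.57 ± 0.79 (unadjusted p = 0.0085, adjusted p = 0.22). Asgr1-203 differed by -0.58 (adjusted p = 0.12) and Asgr1-205 by -0.23 (adjusted p = 0.22), so the longer transcript stood higher in males and the other 2 lower, none of them past the threshold.

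Whether the response to Upf3b-ASO differed between females and males was tested with 2 livers of each sex per group. No gene of the 8846 was called (0.0%), with 647 at an unadjusted p under 0.05, and 0 of the 5 tested members reached that. The largest differences of response, male minus female, were -0.91 ± 0.47 for Ago2 (unadjusted p = 0.087), -0.69 ± 0.33 for Rnaseh1 (unadjusted p = 0.065) and 0.59 ± 0.34 for Rnaseh2a (unadjusted p = 0.11), with adjusted p-values of 0.62, 0.62 and 0.59. In all 3 the male control ASO value includes replicate 3. Without replicate 4 of the control ASO group that liver is the only male of its group, and 43.7% of all genes were called, with Rnaseh2a and Rnaseh2c among them.

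The genes around the members were then counted in lists, of which Upf3b-ASO against control ASO is given with the median log2 fold change, -0.02 over all genes. Over all genes tested 4.34% rose and 5.95% fell, and the counts below are to be read against these shares. Of 24 genes of endocytosis and endosomes, 0 rose and 2 fell (median -0.05): Eea1, a tether of early endosomes, by -0.4 (adjusted p = 0.0049), and Ap2b1, a subunit of the clathrin adaptor AP-2, by -0.35 (adjusted p = 0.019). Of 7 tested lectins and scavenger receptors of other liver cells, 0 were called (median -0.11), and the most abundant of them, the endothelial scavenger receptors Stab2 and Stab1, overlapped between the groups. Stab2 ranged from 57.5 to 143 CPM in control ASO livers and from 85.3 to 121 in Upf3b-ASO livers, and Stab1 from 68.9 to 139 and from 89.3 to 125.

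Genes that act on the ASO or its cleaved RNA were counted next. Of 14 exonuclease and exosome genes 0 were called (median 0.04), with Skiv2l at -0.23 (adjusted p = 0.091) and Xrn2, a nuclear exonuclease, at -0.1 (adjusted p = 0.43). Of 17 genes for proteins that bind phosphorothioate ASOs, 1 rose (median 0.04), Rpa1, a subunit of the single-stranded DNA binding complex RPA, by 0.43 ± 0.08 (adjusted p = 0.01). Rpa1 is also on the list of hybrid and ribonucleotide repair, where it and Rpa2, at 0.54 (adjusted p = 0.037), were the 2 that rose of 8 tested (median 0.03). Of 5 tested nucleic acid sensors and genes of Aicardi-Goutières syndrome, in which RNase H2 genes can be mutated, 1 rose (median 0.27): Ifih1, a sensor of double-stranded RNA, ranged from 50.4 to 72.3 CPM in DPBS, 60.8 to 80.4 in control ASO and 77.1 to 126 in Upf3b-ASO livers. Its log2 fold change was 0.42 ± 0.1 against control ASO (adjusted p = 0.028) and 0.68 against DPBS (adjusted p = 0.0026). Of 9 tested genes of Argonautes, RISC and microRNA processing, Ago3 was the 1 that fell and 0 rose (median 0.02).

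**Figure D5:**
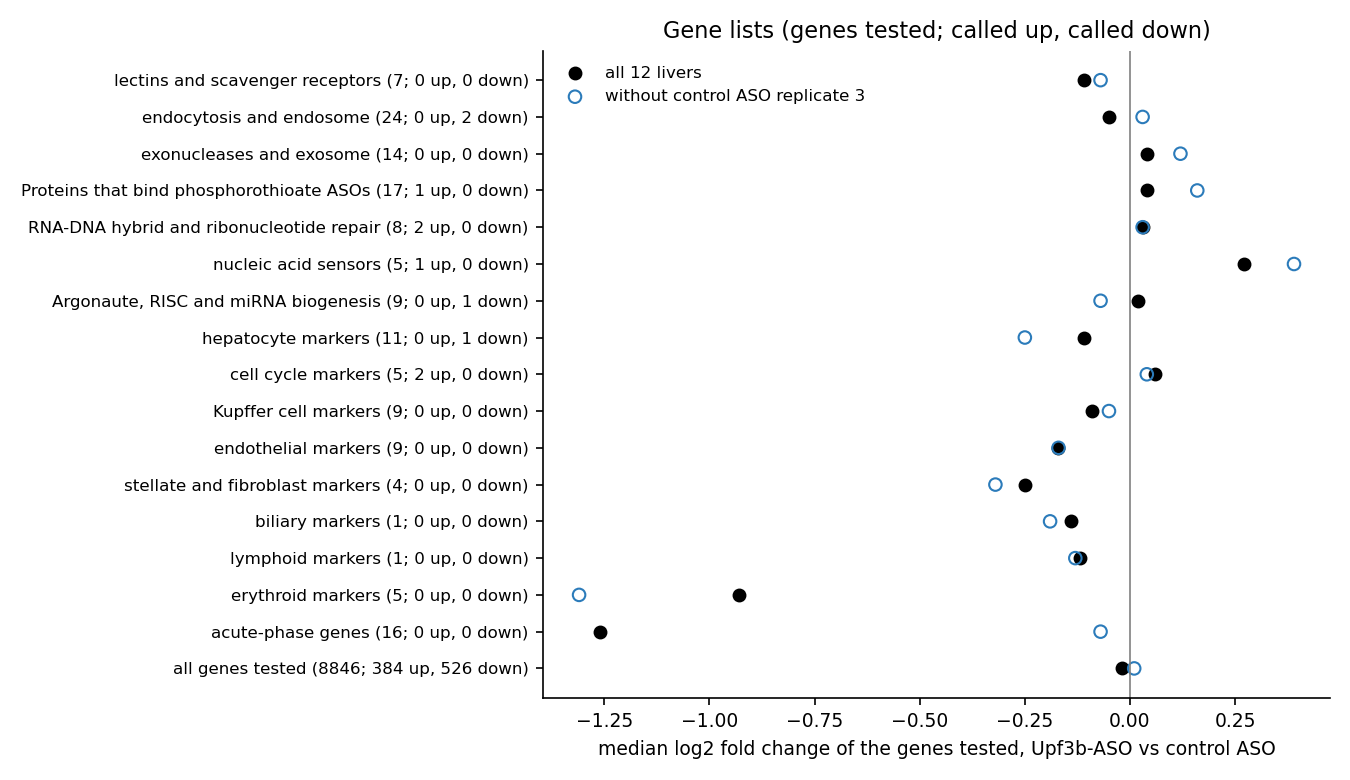
Median log2 fold change of the tested genes of each list for Upf3b-ASO against control ASO, with black points for all 12 livers and open points for the fit without control ASO replicate 3, and beside each name the genes tested and those called up and down. Most medians lie near 0, the acute-phase median moves from -1.26 to -0.07 without that liver, and the erythroid median stays low.

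Marker genes of the cell types in a liver were counted in the same way. Of 11 hepatocyte markers 0 rose and 1 fell, Trf, the gene of serum transferrin, by -0.68 (adjusted p = 0.0068), with a list median of -0.11. Of 5 tested cell cycle genes 2 rose, the replication helicase genes Mcm6, by 1.33 ± 0.2 (adjusted p = 0.0027), and Mcm7, by 0.48 (adjusted p = 0.0073). None of the 9 Kupffer (median -0.09), 9 endothelial (-0.17), 4 stellate (-0.25), 1 biliary (-0.14), 1 lymphoid (-0.12), 5 erythroid (-0.93) and 16 acute-phase (-1.26) genes was called. The acute-phase median was -0.07 without control ASO replicate 3, while the erythroid median was -1.31 without it, and another control ASO liver had an erythroid sum of 3014 CPM. With that replicate left out, 11% of all genes were called higher and 13.5% lower. The higher calls were then 4 of 17 ASO-binding proteins, 3 of 5 sensors, 2 of 14 exonuclease and exosome genes, 2 of 8 repair genes and 2 of 5 cell cycle genes. The lower calls were 4 of 9 endothelial markers, 3 of 24 endocytosis genes, 2 of 7 lectins and scavenger receptors, 2 of 9 Argonaute and RISC genes, 2 of 11 hepatocyte markers and 1 each of 8 repair genes, 4 stellate markers and 16 acute-phase genes, and the other lists had none. What part cell make-up had in the values of the 7 genes was not tested.

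Finally, the genes whose CPM followed each tested member across the 12 livers were listed, with Pearson correlations that share depth and normalization and carry no test. The genes named are the highest of all those tested, so their r values are high partly by that choice. Subtracting the mean of each group and sex leaves 2 livers per mean, whose deviations mirror each other, so fewer than 12 values are independent. On that scale Asgr1 was followed by Uqcrc2 (r = 0.946) and Zc3h15 (0.936), and Asgr2 by Gm12161 (0.966) and 9130401M01Rik (0.949). Rnaseh2a was followed by Gm10780 (0.982) and BC003965 (0.976). Rnaseh2b was followed by Nol12 (0.946) and Rps27a-ps2 (0.92), and Rnaseh2c by Ublcp1 (0.999) and Tenm3 (0.998). Without that subtraction the closest were Acadl (0.833) and Sult1b1 (0.824) for Asgr1, Top1mt (0.926) and Impdh2 (0.912) for Asgr2, Klhdc3 (0.967) and Stradb (0.945) for Rnaseh2a, AW549877 (0.804) and Zfp715 (0.792) for Rnaseh2b, and C1galt1c1 (0.952) and Mbnl1 (0.943) for Rnaseh2c. No gene was named in both sets for the same member, and no other member was among them.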

How the data were processed

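TruSeq libraries of total liver RNA were sequenced by the authors on a HiSeq instrument, and Salmon 0.7.2 was used to assign reads to Ensembl mouse transcripts (GRCm38). Its library type was detected automatically, and whether strand was kept is not given in the sources used here. The deposited values are estimated counts per transcript, fractional where reads were shared, and TPM, which the authors' tool scaled by effective length to the same total in each liver. Both come from 1 file per liver.

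Transcripts were joined to genes by Ensembl identifier (98.1% of 92468 transcripts; 97.51% to 99.26% of the counts but 79.7% to 95.91% of the TPM of a liver), summed and rounded. Genes with TPM of at least 5 in at least 4 livers were tested with edgeR 4.0.16 in a single fit of 12 livers on group and sex, with TMM normalization, Benjamini-Hochberg adjustment over all genes tested and calls at an adjusted p under 0.05. Rnaseh1 and Ago2 failed this filter and were fitted on the genes kept by filterByExpr. Transcripts needed 10 counts in 4 livers. Exact permutation tests over livers were two-sided. Alternatives used DESeq2 1.42.0, limma 3.58.1, other filters, a transcript length offset, a replicate block, fits without sex or with 2 groups, and the omission of each liver. The tests were checked on simulated counts. The lowest chi-square per degree of freedom between 2 livers of a group was 23.9, so no 2 agreed within sampling noise.

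The 7 genes, the lists and the named genes were chosen with earlier results of these data known. From each list up to 3 called genes per direction with the lowest adjusted p against control ASO were named, or its most abundant 2 if none was called, and for each tested member the 2 genes most correlated with it on each scale. Several such genes of uncalled marker lists are given only through their list. Replicate numbers were not shown to pair livers, and no label gives a shared litter or batch. After group and sex means were removed, livers of the same number correlated at 0.025 on average. With 2 livers per mean, this value mirrors the -0.025 of livers of the same sex and other number, so it cannot settle pairing. Counts carry no molecular identifiers. The standard errors and intervals of the fits rest on a spread estimated over the livers.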

Additional observations from a re-analysis of the deposited data

How the results depend on the processing

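The counts of called members changed under few alternatives. Between Upf3b-ASO and control ASO the count of 0 became 1 with DESeq2's Wald test, and ranged from 0 to 1 when each liver was left out. Between Upf3b-ASO and DPBS it became 1 with DESeq2 size factors, 2 with the Wald test and 2 in a fit of the 2 groups, and ranged from 0 to 2 without single livers. Between the sexes it became 2 with limma on log2(TPM + 1) and 2 on log2(TPM + 0.1), and ranged from 0 to 2 without single livers, as it did for the interaction of sex and ASO. In the order of levels, CPM per kb of effective length put Rnaseh2c at rank 2 and Asgr2 at rank 3, and coding transcripts alone, added after the data were seen, put Rnaseh1 at rank 5 and Rnaseh2b at rank 6.

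Directions that turned belonged to differences that were not called. With limma (pseudocounts 1 and 0.1 in turn) they were Rnaseh2b between the ASO groups at 0.01 and 0.03, and against DPBS under control ASO Asgr2 at -0.03 and -0.03 and Rnaseh2b at -0.23 and -0.28, the latter also at -0.15 with the length offset. Between the sexes limma gave -0.19 and -0.22 for Rnaseh1, -0.1 and -0.1 for Rnaseh2a, -0.26 and -0.31 for Rnaseh2b, and -0.15 and -0.16 for Rnaseh2c. The median over all genes in these fits was itself -0.29 and -0.31. Without single livers, control ASO against DPBS ranged from -0.01 to 0.29 for Rnaseh1, -0.17 to 0.1 for Rnaseh2a, -0.03 to 0.13 for Rnaseh2b and -0.03 to 0.52 for Ago2, and males against females from -0.05 to 0.07 for Rnaseh2b and -0.33 to 0.01 for Ago2. The cause was not tested.

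The replicate numbers were not shown to mark shared animals, litters or batches. With the number as a block, 0 of the 5 members and 0 of 28 transcripts were called, as without it. Rnaseh1 and Rnaseh2b rested on at most 105 and 110 counts per liver, and counting error and the spread between livers were not separated.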
